A study of Mus musculus with 31 samples.

Results

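The 9 genes described here are transcription factors that drive the epithelial-mesenchymal transition (EMT), *Snai1*, *Snai2*, *Twist1*, *Twist2*, *Zeb1* and *Zeb2*, and 3 genes read as marks of mesenchymal cells, *Vim*, *Cdh2* and *Fn1*. They were chosen by name, and every probe set of the array that is annotated with one of these symbols alone was used. This gave 21 probe sets of the 45037 on the array, for 9 of 18193 genes. The study asked whether Myc is needed when activated β-catenin in the basal layer of the mouse mammary gland expands stem cells and gives rise to tumors, and its arrays followed the lesions by stage. The 31 arrays cover control tissue (4), small hyperplasias (5), large hyperplasias (5) and tumors (11), and, apart, pools of sorted basal cells from *Myc*-deficient (3) and control (3) mice. The lesions came from K5ΔNβcat mice, in which the keratin 5 promoter drives an N-terminally truncated, stabilized β-catenin in basal cells. The *Myc*-deficient cells came from K5creMycL/L mice, in which a Cre under the keratin 5 promoter deletes *Myc* in the basal layer, and neither these cells nor their controls carried the β-catenin transgene. The strain is given as C57BL6 in the labels, whereas the methods name a mixed background of 129SV and C57BL6. Ages were not given for the arrayed animals, and the labels do not say whether each tissue sample came from a separate mouse, so that p-values refer to the spread over these arrays, part of which may be technical.

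During EMT, epithelial cells give up their junctions and polarity and take on the shape and motility of mesenchymal cells. Factors of the Snail, Twist and Zeb families bind E-boxes in promoters such as that of *Cdh1*, which encodes E-cadherin, and repress epithelial genes. The same factors are made by cells that never were epithelial, fibroblasts, endothelial cells, adipocytes and leukocytes among them. In the mammary gland, *Snai2* (Slug) is also a gene of normal basal cells. A signal measured in whole tissue therefore adds up several cell types, and fewer cells of a type and less RNA per cell cannot be told apart. The control gland is rich in fat, and of 6 adipocyte markers 4 were called lower in small hyperplasias, 4 in large hyperplasias and 6 in tumors, each against control tissue. Of all genes tested in these comparisons, 15.3%, 22.9% and 36.8% were called lower.

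Some facts of the tissue arrays are needed to read the values. Summed over 6 adipocyte markers, signals of control tissue ranged from 34425 to 37893, those of small hyperplasias from 16602 to 21578, those of large hyperplasias from 14057 to 16966 and those of tumors from 674 to 6086. The sum of 3 basal epithelial markers (*Krt5*, *Krt14* and *Trp63*) ran from 596 to 850 in control tissue, from 3227 to 4596 in small and from 3714 to 6870 in large hyperplasias, and from 6093 to 10427 in tumors. The median signal of an array lay between 27.1 and 30.1 in control tissue, between 28.3 and 29.97 in small and between 29.8 and 32.9 in large hyperplasias, and between 23.9 and 29.6 in tumors. Values are linear MAS5 signals, a measure of the brightness of a probe set, and a signal under 30 counts as background in the methods of the study. Signals of different probe sets were not set against each other as levels, because probe sets differ in how brightly they bind. Differences are on the scale of log2(signal + 16), with their standard error, and calls are made at an adjusted p under 0.05 in limma over all probe sets tested.

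In tumors against control tissue, 8 of the 9 genes were called, 3 of them higher (*Snai1*, *Snai2* and *Fn1*) and 5 lower (*Twist1*, *Twist2*, *Zeb1*, *Zeb2* and *Vim*). In the background of 11831 genes tested, 35% were called higher and 36.8% lower. In large hyperplasias, 3 genes were called higher and 3 lower, where 26.8% and 22.9% of 11763 genes were called higher and lower. In small hyperplasias, *Fn1* was the 1 gene called, as higher, where 19.3% and 15.3% of 11594 genes were called. The members thus moved in both directions. Their median difference in tumors was -0.66, beside -0.02 over all genes tested, but it is the value of *Vim* itself on its brightest probe set. *Vim* has 2 other probe sets, which point the other way and are not called, and with either of them in its place 7 genes were called in tumors, 4 of them lower, with a median of -0.14, and 5 in large hyperplasias, 2 of them lower. *Cdh2* was not called in any comparison.

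**Figure D1:**
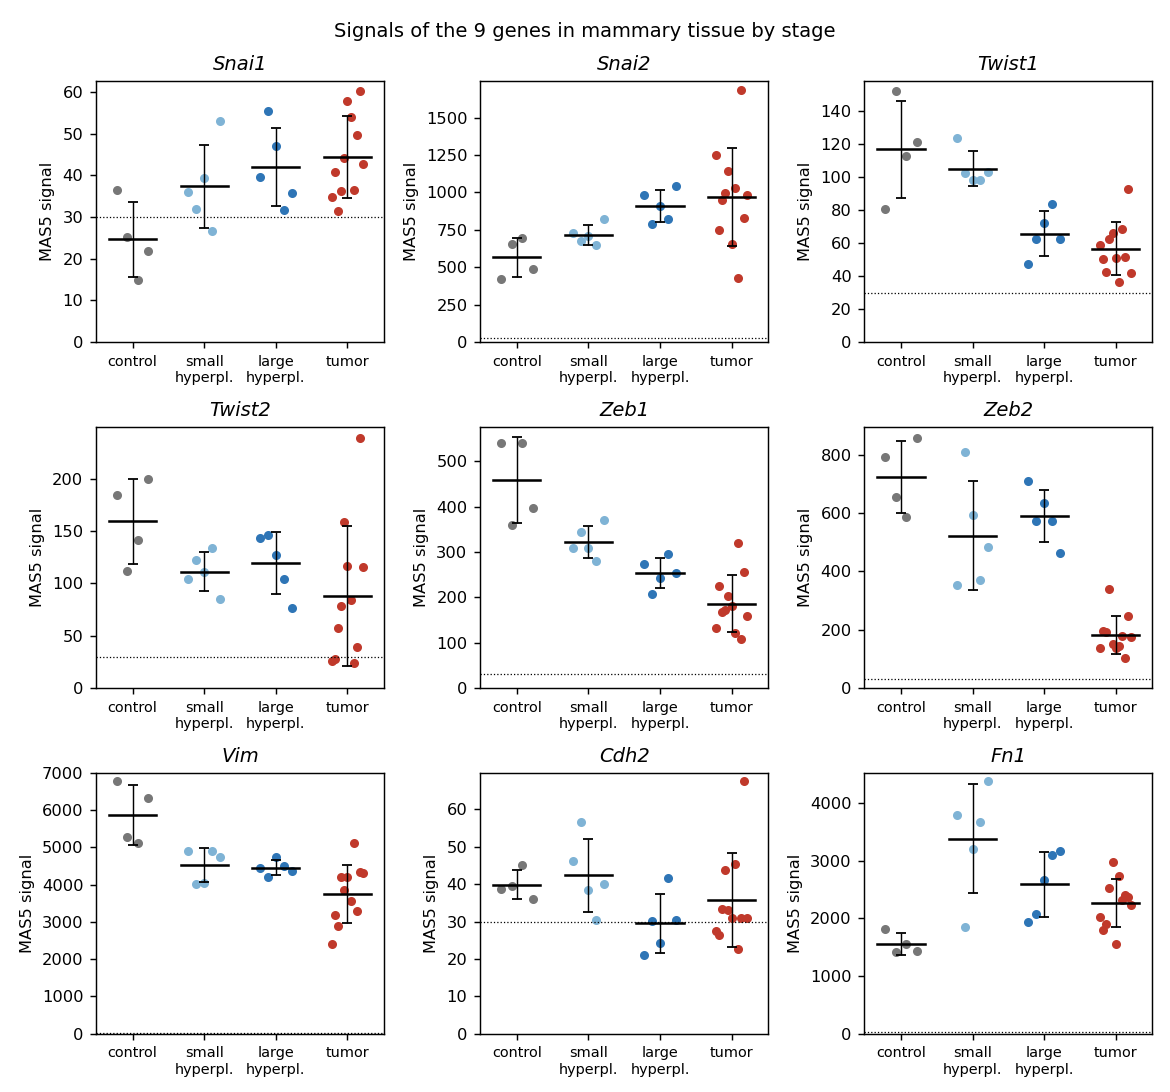
MAS5 signal of the brightest probe set of each gene (vertical axes, each from 0) in control tissue (4), small hyperplasias (5), large hyperplasias (5) and tumors (11), 1 point per sample. Horizontal bars are means, error bars SDs, and the dotted line marks a signal of 30; *Zeb2* is the gene with no overlap between the tumors, at 102 to 339, and the 3 other stages, which start at 352.

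The Snail factors were higher in tumors and in large hyperplasias than in control tissue. *Snai1*, the factor for which the family is named, gave 36.4, 25.3, 14.9 and 21.9 in control tissue and 35.98, 31.8, 39.4, 26.7 and 53.1 in small hyperplasias. In large hyperplasias it gave 39.7, 55.4, 47.0, 31.7 and 35.9, and in tumors the lowest, median and highest signals were 31.3, 42.6 and 60.3. Of the control samples 1 was above 30, and its 36.4 lay within the range of every lesion stage, whereas all 11 tumors and all 5 large hyperplasias were above 30. The difference was 0.58 ± 0.15 (SE) in tumors against control tissue (adjusted p = 0.0011) and 0.52 ± 0.17 in large hyperplasias against control tissue (adjusted p = 0.013). In small hyperplasias it was 0.40 ± 0.17 and was not called (adjusted p = 0.069). These are dim signals: with signals under 30 set to 30, the large hyperplasias were no longer called (0.38, adjusted p = 0.10), nor were they without control replicate 3 (0.40, adjusted p = 0.066), while small hyperplasias were called without small hyperplasia replicate 4 (0.48, adjusted p = 0.041) or control replicate 1 (0.53, adjusted p = 0.025).

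The promoter of *Snai1* is shown because it was the one member promoter that held the E-box CACCTG, a hexamer bound by Snail and Zeb factors. RefSeq promoter entries on GRCm38.p6 were found for 5 of the 9 genes, in 8 windows (*Snai1*, *Twist1*, *Twist2*, *Vim* and *Zeb2*), and not for *Snai2*, *Zeb1*, *Cdh2* and *Fn1*. In the 250 bases before the start of transcription, searched on both strands, 17.2% of 32851 promoter windows held this E-box. The Tcf/Lef core CTTTGA, which factors that bind β-catenin recognise, was in 13.8% of all windows and in none of these 8. The motifs do not overlap. The sequences run 5′ to 3′ along the strand of the gene, and capitals mark the E-box, which starts 126 bases before the *Snai1* start. For *Zeb2*, the gene with the largest difference, there were several windows, and none of them holds either motif. The *Zeb2* window farthest upstream is set beside that of *Snai1*.
Snai1, chr2:167537945-167538194, plus strand: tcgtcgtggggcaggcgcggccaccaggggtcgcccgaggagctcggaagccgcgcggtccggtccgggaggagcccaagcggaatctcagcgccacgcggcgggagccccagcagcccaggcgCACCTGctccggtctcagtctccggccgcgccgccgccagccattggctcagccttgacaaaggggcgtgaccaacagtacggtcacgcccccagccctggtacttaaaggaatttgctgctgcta
Zeb2, chr2:45117443-45117692, minus strand: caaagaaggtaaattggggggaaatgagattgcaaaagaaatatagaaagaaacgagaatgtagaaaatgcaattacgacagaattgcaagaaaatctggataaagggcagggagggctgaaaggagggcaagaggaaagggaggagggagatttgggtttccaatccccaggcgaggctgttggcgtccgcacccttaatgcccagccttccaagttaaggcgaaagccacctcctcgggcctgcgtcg

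*Snai2* encodes Slug, a repressor that basal mammary cells also use outside of EMT. On its brightest probe set (1447643_x_at) it gave 423, 659, 696 and 489 in control tissue, 727, 677, 711, 647 and 822 in small hyperplasias, and 982, 786, 908, 820 and 1045 in large hyperplasias. In tumors the signals reached from 429 through a median of 982 to 1681. All 5 large hyperplasias were above all 4 control samples, whereas the tumors overlapped the control samples through tumors 6 (657) and 8 (429). The difference was 0.71 ± 0.21 in tumors (adjusted p = 0.0038), 0.69 ± 0.24 in large hyperplasias (adjusted p = 0.021) and 0.35 ± 0.24 in small hyperplasias (adjusted p = 0.27), each against control tissue. The second probe set (1418673_at) also rose in tumors, by 1.06 ± 0.25 (adjusted p = 5.4e-04), but among the hyperplasias it called the small ones (0.87 ± 0.28, adjusted p = 0.021) and not the large ones (0.56 ± 0.28, adjusted p = 0.11). The call in large hyperplasias was lost without control replicate 1 (0.56, adjusted p = 0.085) or control replicate 4 (0.63, adjusted p = 0.058). The basal markers moved the same way as *Snai2*, with *Trp63*, which encodes the basal cell factor p63, higher by 2.54 ± 0.19 in tumors, and their part in the difference was not tested.

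The Twist factors were lower in tumors. *Twist1*, which acts in mesoderm and in metastatic cells, gave 80.7, 152, 112 and 121 in control tissue, 123, 102, 97.8, 98.2 and 103 in small hyperplasias and 47.5, 62.6, 72.4, 83.8 and 62.2 in large hyperplasias. In tumors it gave 36.2, 51.3 and 92.9 as the lowest, median and highest. The step lay between the hyperplasias: all 5 large ones were below all 5 small ones, with a difference of -0.58 ± 0.17 (adjusted p = 0.029). In that comparison 4.1% of 11594 genes were called higher and 5.55% lower, and *Twist1* was the 1 member called. The call was lost without small hyperplasia replicate 1 (-0.53, adjusted p = 0.0831), large hyperplasia replicate 1 (-0.49, adjusted p = 0.0897) or large hyperplasia replicate 2 (-0.57, adjusted p = 0.060). Against control tissue, *Twist1* differed by -0.87 ± 0.15 in tumors (adjusted p = 1.9e-05), by -0.69 ± 0.18 in large hyperplasias (adjusted p = 0.0025) and by -0.11 ± 0.18 in small hyperplasias (adjusted p = 0.67).

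*Twist2*, a relative of *Twist1* that is known from dermal and other mesenchymal precursors, was the most variable gene of the set among tumors. Its signals were 185, 112, 142 and 200 in control tissue, 105, 122, 111, 133 and 85.1 in small hyperplasias, and 143, 147, 127, 104 and 76.8 in large hyperplasias. Tumors gave 23.5 at the lowest, 78.7 at the median and 239 at the highest, and 3 of the 11 were below 30. Tumor 10, at 239, was above every control sample, so the groups overlapped. The difference was -0.98 ± 0.35 in tumors (adjusted p = 0.017), and neither large (-0.37 ± 0.41, adjusted p = 0.48) nor small hyperplasias (-0.44 ± 0.41, adjusted p = 0.43) were called. Without control replicate 1 (-0.91, adjusted p = 0.051) or control replicate 4 (-0.87, adjusted p = 0.060), tumors were no longer called. Without tumor 10, tumors were also called against large hyperplasias (-0.77, adjusted p = 0.029), where the value with all tumors was -0.61 ± 0.33 (adjusted p = 0.12).

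In tumors against control tissue, the Zeb factors showed the largest differences of the 9 genes, and both were lower. *Zeb1*, a repressor of epithelial genes that is held down in epithelia by the miR-200 family, gave 539, 359, 541 and 398 in control tissue and 308, 345, 309, 279 and 370 in small hyperplasias. In large hyperplasias it gave 273, 207, 242, 296 and 253, and in tumors 108, 171 and 320 as the lowest, median and highest. All tumors and all large hyperplasias were below all control samples, and on this probe set (1418926_at) the mean was lower at each later stage, with 459 ± 94.5 in control tissue, 322 ± 35.4 in small hyperplasias, 254 ± 33.5 in large hyperplasias and 186 ± 62.7 in tumors (SD, n = 4, 5, 5 and 11). Against control tissue the difference was -1.27 ± 0.18 in tumors (adjusted p = 1.2e-06) and -0.80 ± 0.21 in large hyperplasias (adjusted p = 0.0031), and -0.48 ± 0.21 in small hyperplasias was not called (adjusted p = 0.088). Tumors were also lower than large hyperplasias, at a difference of -0.47 ± 0.17 (adjusted p = 0.022), whereas large and small hyperplasias did not differ beyond their spread (-0.33 ± 0.20, adjusted p = 0.31). The call against large hyperplasias was lost without large hyperplasia replicate 1 (-0.45, adjusted p = 0.051) or replicate 4 (-0.42, adjusted p = 0.064). On probe set 1446127_at tumors were not called against large hyperplasias (-0.18 ± 0.15, adjusted p = 0.32). The dimmer probe sets were less clear: 1443005_at differed by -0.46 ± 0.14 in tumors against control tissue (adjusted p = 0.0047), and all tumors were below 30 there. The control mean of log2 signal lay 1.06-fold above 30, although control replicate 3 (21.3) was itself below 30 and within the range of the tumors. Probe set 1446127_at did not follow the stages, with means of 45.9 ± 13.5 in control tissue, 59.7 ± 7.12 in small hyperplasias, 49.6 ± 9.10 in large hyperplasias and 42.8 ± 13.0 in tumors (SD). It differed from control tissue by 0.31 ± 0.19 in small hyperplasias, 0.10 ± 0.19 in large hyperplasias and -0.08 ± 0.17 in tumors and was not called (adjusted p = 0.22, 0.70 and 0.66), and 1420243_at was at background throughout.

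*Zeb2*, the second Zeb repressor, which is also made by macrophages and Schwann cells, was lower in tumors and was not called in either hyperplasia on its brightest probe set. That probe set (1422748_at) gave 791, 655, 586 and 857 in control tissue, 352, 810, 593, 371 and 484 in small hyperplasias, and 708, 571, 633, 574 and 463 in large hyperplasias. The 11 tumors lay between 102 and 339 with a median of 174, below every sample of the other stages. The difference was -1.94 ± 0.21 in tumors against control tissue (adjusted p = 1.1e-08) and -1.66 ± 0.19 in tumors against large hyperplasias (adjusted p = 2.0e-07). In tumors against large hyperplasias 22.7% of 11747 genes were called higher and 31.9% lower, and *Zeb1* and *Zeb2* were the 2 members called, both lower. Large (-0.28 ± 0.24, adjusted p = 0.35) and small hyperplasias (-0.51 ± 0.24, adjusted p = 0.11) were not called against control tissue, although the small ones were without small hyperplasia replicate 2 (-0.68, adjusted p = 0.031). Of the 4 other probe sets, 3 were bright enough to be tested in tumors against control tissue, and all 3 were lower, at differences of -0.81 ± 0.23 (1434298_at), -1.43 ± 0.17 (1456389_at) and -0.94 ± 0.18 (1458941_at). Against large hyperplasias, 1456389_at (-0.83 ± 0.15) and 1458941_at (-0.77 ± 0.16) were called lower in tumors, whereas 1434298_at (-0.37 ± 0.21, adjusted p = 0.14) and 1454200_at (-0.39 ± 0.19, adjusted p = 0.091) were not. On 1456389_at, large hyperplasias were already lower than control tissue (-0.60 ± 0.19, adjusted p = 0.013).

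**Figure D2:**
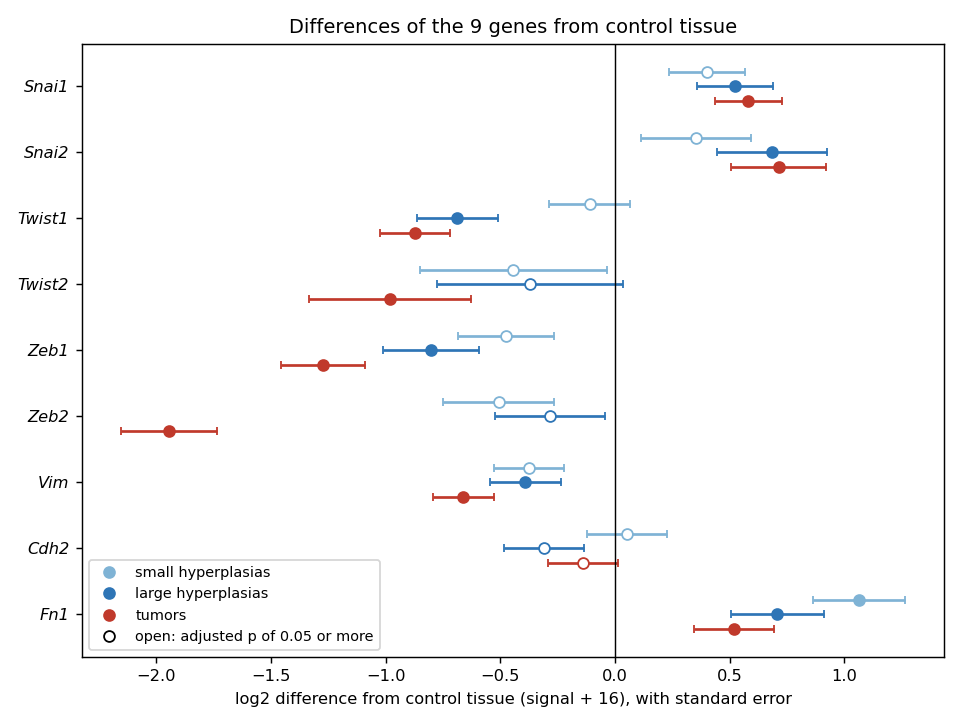
Log2 difference from control tissue (horizontal axis, log2 of signal + 16, error bars are standard errors) of the brightest probe set of each gene in small hyperplasias, large hyperplasias and tumors. Filled points are called at an adjusted p under 0.05; *Snai1*, *Snai2* and *Fn1* lie to the right, *Twist1*, *Zeb1* and *Vim* to the left, and *Zeb2* reaches -1.94 in tumors with open points in both hyperplasias.

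*Vim* encodes vimentin, the intermediate filament of mesenchymal cells, and its 3 probe sets disagreed on direction. The brightest in tissue (1450641_at) gave 6784, 5276, 5124 and 6319 in control tissue, 4912, 4011, 4041, 4895 and 4728 in small hyperplasias, 4456, 4192, 4745, 4510 and 4352 in large hyperplasias, and 2415 to 5112 in tumors with a median of 3856. Every lesion was below every control sample on this probe set, at -0.66 ± 0.13 in tumors (adjusted p = 1.0e-04), -0.39 ± 0.15 in large hyperplasias (adjusted p = 0.039) and -0.37 ± 0.15 in small hyperplasias (adjusted p = 0.065). On 1438118_x_at, however, tumors averaged 3800 ± 535 and control tissue 3207 ± 340 (SD, n = 11 and 4), a difference of 0.24 ± 0.11 (adjusted p = 0.055), and on 1456292_a_at the difference was 0.25 ± 0.13 (adjusted p = 0.10). Neither of these was called in any comparison. Within tumors the probe sets moved together, as 1450641_at correlated across the 11 tumors with 1438118_x_at at r = 0.97 and with 1456292_a_at at r = 0.98. What differed was their ratio: 1450641_at over 1438118_x_at lay between 1.74 and 1.94 in control tissue, between 0.951 and 1.70 in small and between 1.17 and 1.37 in large hyperplasias, and between 0.854 and 1.11 in tumors, with no overlap between control tissue and lesions. The direction of *Vim* between stages is thus not settled by these arrays, and the fall in large hyperplasias was also lost when any of control replicates 1 and 4 and large hyperplasia replicates 1, 2, 4 and 5 was left out (adjusted p of 0.055 to 0.13).

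**Figure D3:**
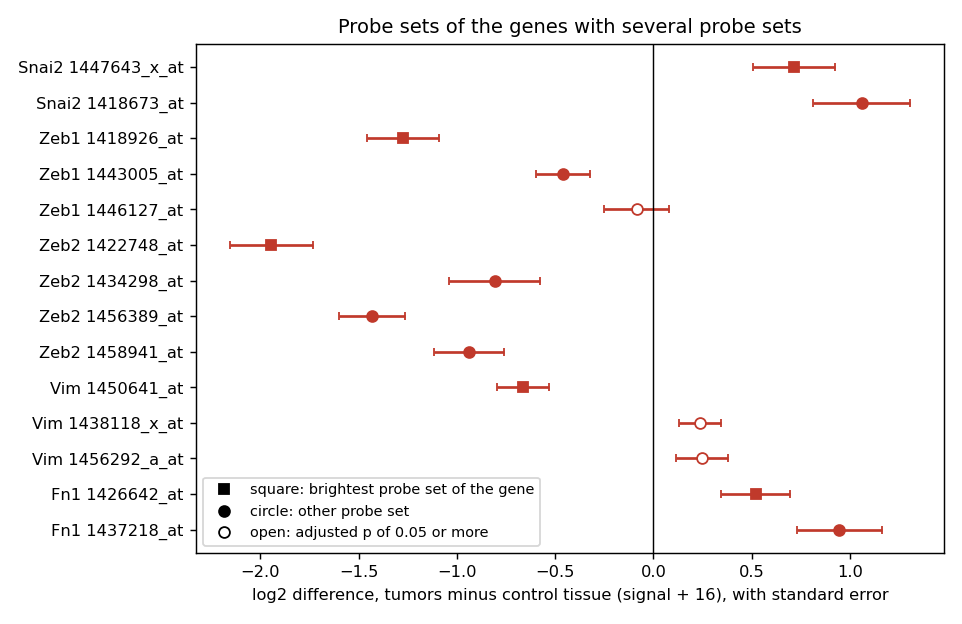
Log2 difference of tumors from control tissue (horizontal axis, log2 of signal + 16, error bars are standard errors) for each tested probe set of the genes with several tested probe sets. Squares are the brightest probe set of a gene and circles the others, and filled symbols are called. The probe sets of *Snai2*, *Zeb2* and *Fn1* share a side, and so do those of *Zeb1*, with 1446127_at near 0 at -0.08. *Vim* has -0.66 on 1 probe set and 0.24 and 0.25 on the others.

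*Cdh2* encodes N-cadherin, which replaces E-cadherin in the classical cadherin switch of EMT. Its signals stayed near background, with 38.6, 39.5, 45.2 and 35.9 in control tissue, 46.3, 56.5, 38.5, 30.3 and 40.2 in small hyperplasias, and 21.1, 30.2, 24.2, 41.6 and 30.4 in large hyperplasias. Tumors reached from 22.7 through 31.0 to 67.5, with 8 of 11 above 30. The groups overlapped, and the difference was -0.14 ± 0.15 in tumors (adjusted p = 0.42), -0.31 ± 0.17 in large hyperplasias (adjusted p = 0.15) and 0.05 ± 0.17 in small hyperplasias, each against control tissue. Its second probe set (1449244_at) was too dim to be tested between tissues. By contrast *Cdh1*, which encodes the partner of the switch, E-cadherin, was at 1671 ± 193 in tumors and 338 ± 97.8 in control tissue (2.29 ± 0.13, adjusted p = 4.6e-14).

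*Fn1* encodes fibronectin, a matrix protein laid down by fibroblasts and by cells in EMT, and it was highest in the earliest lesions. It gave 1826, 1418, 1549 and 1429 in control tissue, 3798, 1859, 3208, 3677 and 4380 in small hyperplasias, 1936, 2086, 2664, 3101 and 3163 in large hyperplasias, and 1557, 2325 and 2977 as the lowest, median and highest of the tumors. All 5 small and all 5 large hyperplasias were above all control samples, and of the tumors, 2 (1803) and 6 (1557) overlapped them. The difference from control tissue was 1.06 ± 0.20 in small hyperplasias (adjusted p = 2.9e-04), 0.71 ± 0.20 in large hyperplasias (adjusted p = 0.0056) and 0.52 ± 0.18 in tumors (adjusted p = 0.011). The second probe set (1437218_at) gave 1.54, 1.14 ± 0.25 and 0.95 ± 0.22 for the same comparisons, all called. The decline along the lesion stages did not pass the test, at -0.36 ± 0.19 in large against small hyperplasias (adjusted p = 0.24) and -0.19 ± 0.16 in tumors against large hyperplasias (adjusted p = 0.33). Without small hyperplasia replicate 2, which at 1859 lay closest to control tissue, the first of these was called (-0.56, adjusted p = 0.032).

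Other regulators of EMT were listed beside the 9 genes, 17 of them, of which 12 were tested in tumors against control tissue. Of all genes tested there, 35% were called higher and 36.8% lower. None of the 12 was called lower, and 5 were higher, with a median of 0.34. They were *Tgfb2* (133 ± 31.3 in tumors, 29.2 ± 1.55 in control tissue, 1.70 ± 0.14), *Tgfb1* (0.36), both ligands of the TGFβ pathway, its receptor *Tgfbr1* (0.95 ± 0.10), the chromatin protein *Hmga2* (1.15 ± 0.22) and the homeobox gene *Prrx2*, which was below 30 in all control samples and at least 1.56-fold higher. In large hyperplasias 8 of 12 were higher and none lower, beside 26.8% and 22.9% of all genes tested. In small hyperplasias 4 of 12 were higher and none lower, beside 19.3% and 15.3%. Against large hyperplasias, 2 of 12 were higher in tumors and 5 lower, beside 22.7% and 31.9%.

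Of 15 further mesenchymal and matrix genes, 8 were higher and 3 lower in tumors against control tissue, with a median of 0.73. Of all genes tested, 35% were called higher and 36.8% lower. The highest differences were those of *Tnc*, which encodes the matrix protein tenascin C (2159 ± 1140 in tumors, 53.8 ± 35.5 in control tissue, 4.87 ± 0.37), the membrane protease *Mmp14* (2.54 ± 0.18), the cadherin *Cdh11* of mesenchymal cells (2.42 ± 0.26) and *Pdpn*, podoplanin (1.32 ± 0.23). *Sparc* (-0.96), *Tagln* (-0.50) and *Mmp2* (-0.49) were lower. Among 18 genes of epithelial identity, 11 were higher and 2 lower, beside the same shares of all genes, with a median of 1.32. *Dsp*, desmoplakin of the desmosome, rose by 3.26 ± 0.11 and the splicing factor *Esrp2* by 2.38 ± 0.20, and *Ovol1*, a repressor of mesenchymal fate, was at least 5.73-fold higher. The 2 that fell were *Cldn3* (-1.06) and *Ovol2*, which was at least 1.05-fold lower. In small hyperplasias, 10 of the 18 were already higher and none lower, beside 19.3% and 15.3% of all genes tested.

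Markers of other cell types moved as well, and their part in the values of the 9 genes was not tested. Of all genes tested in tumors against control tissue, 35% were called higher and 36.8% lower. Beside the fall of 6 of 6 adipocyte markers in tumors, 8 of 8 endothelial markers were lower, with a summed signal of 532 to 1022 in tumors and 1589 to 1888 in control tissue. The 8 macrophage markers summed to 4969 to 8611 in tumors and 4247 to 6783 in control tissue, and 4 were higher. The 10 fibroblast markers summed to 12488 to 29824 in tumors and 24808 to 29553 in control tissue, with 3 higher (*Col1a1* by 1.09 and *Thy1* by 1.02 among them) and 2 lower (*Dpt* by -3.97 and *Dcn* by -1.54). Of 6 pericyte markers 3 were lower and 1 higher. In tumors against large hyperplasias, where *Zeb2* was lower, 31.9% of all genes tested were called lower and 22.7% higher. There 6 of 6 adipocyte, 4 of 4 lymphocyte, 2 of 2 Schwann cell, 4 of 8 macrophage and 3 of 10 fibroblast markers were lower. Of 6 pericyte markers 2 were higher and 1 lower, and of 8 endothelial markers 1 was higher and 1 lower. Also higher were 1 macrophage marker and 1 of 3 skeletal muscle markers. The lymphocyte markers summed to 40.4 to 207 in tumors and 186 to 580 in large hyperplasias. The Schwann cell markers, which were also lower than in control tissue, had a sum of 24.1 to 258 in tumors, 210 to 379 in large hyperplasias and 194 to 446 in control tissue. In large hyperplasias the 8 endothelial markers were all lower than in control tissue too (571 to 796 in large hyperplasias). There *Zeb2* was not called on its brightest probe set and was called lower on 1456389_at (-0.60 ± 0.19). The fibroblast sum in large hyperplasias, 23364 to 27739, overlapped that of control tissue.

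Whether the 11 tumors form classes for the 9 genes as a set was not tested. The highest and lowest signals fell on different tumors for different genes. Tumor 8 had the lowest *Snai2* (429) and *Twist2* (23.5) and the highest *Zeb1* (320) and *Vim* (5112). Tumor 9 had the highest *Snai2* (1681) and the lowest *Zeb1* (108) and *Zeb2* (102). Tumor 10 had the highest *Snai1* (60.3), *Twist1* (92.9), *Twist2* (239) and *Cdh2* (67.5), and tumor 4 the highest *Zeb2* (339). Among 36 pairs of genes, none passed a permutation test after adjustment over the pairs. The closest was *Snai2* with *Zeb1*, which ran in opposite directions (Pearson r = -0.83, permutation p = 0.0017, adjusted p = 0.061, Spearman rho = -0.76, permutation p = 0.0085). It weakened to r = -0.53 without the 2 tumors of most extreme *Snai2*, so that it rests in part on them. *Twist2* with *Cdh2* followed (r = 0.73, permutation p = 0.0077, adjusted p = 0.14, rho = 0.69 with permutation p = 0.022, r = 0.42 without 2 tumors).

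**Figure D4:**
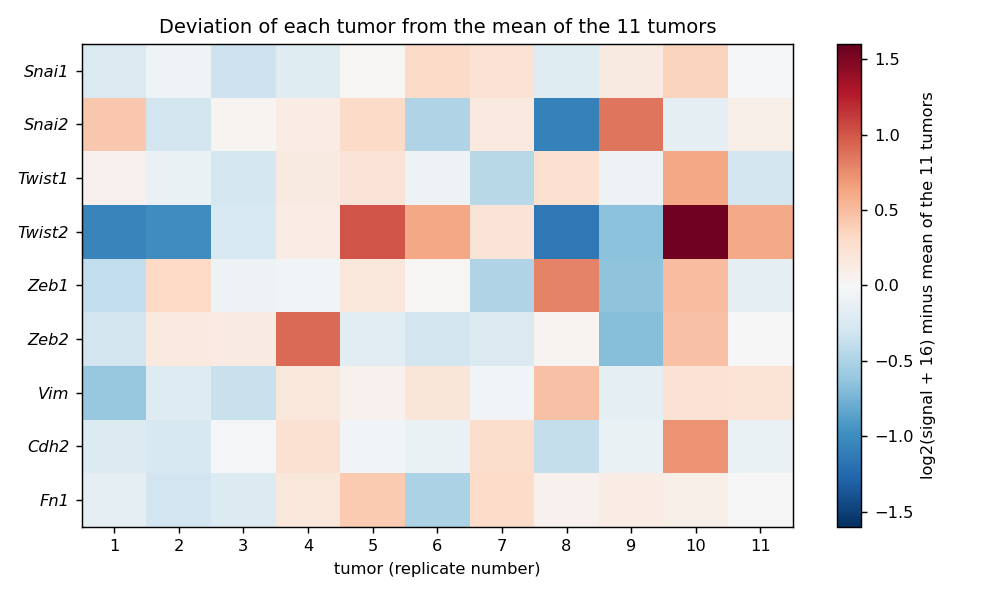
Deviation of each tumor (horizontal axis, replicate number) from the mean of the 11 tumors, in log2 of signal + 16 (color scale), for the brightest probe set of each gene (vertical axis). *Twist2* varied most, with 23.5 in tumor 8 and 239 in tumor 10, and *Snai2* and *Zeb1* have opposite colors in tumors 8 and 9.

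The 9 genes were also set against 9 marker lists over the 11 tumors, 81 relations in all, and none passed after adjustment. *Twist2* ran closest with the mean of the fibroblast markers (r = 0.86, permutation p = 6.7e-04, adjusted p = 0.054, rho = 0.83 with permutation p = 0.0028, and r = 0.86 without the 2 farthest tumors). *Zeb1* was lower where epithelial identity genes were higher (r = -0.76, permutation p = 0.0074, adjusted p = 0.13, rho = -0.87 with permutation p = 0.0011, r = -0.66 without 2 tumors). *Vim* was lower where adipocyte markers were higher (r = -0.82, permutation p = 0.0022, adjusted p = 0.089, rho = -0.76 with permutation p = 0.0089, r = -0.61 without 2 tumors). *Zeb2* ran with the macrophage markers (r = 0.72, permutation p = 0.013, adjusted p = 0.13, rho = 0.57 with permutation p = 0.070, r = 0.54 without 2 tumors) and, by rank, with the lymphocyte markers (rho = 0.84 with permutation p = 0.0022, adjusted p = 0.076, r = 0.54 with permutation p = 0.086, r = 0.48 without 2 tumors). The r of *Zeb2* with the Schwann cell markers was -0.03. In tumors 0 of 2 Schwann cell markers and 1 of 4 lymphocyte markers had a median of at least 30. Relations with these lists, whichever the member, therefore rest largely on signals near background. *Zeb1* was as close to the macrophage markers (r = 0.72, permutation p = 0.012, adjusted p = 0.13, r = 0.44 without 2 tumors). Relations of like size were *Vim* with Schwann cell markers (r = -0.79, permutation p = 0.0053), *Twist2* with endothelial markers (r = 0.76, permutation p = 0.0079) and *Twist1* with epithelial identity genes (r = -0.73, permutation p = 0.010), each at an adjusted p of 0.13. *Vim* also ran against the median signal of the array, one of 9 such relations (r = -0.71, permutation p = 0.015, adjusted p = 0.12, rho = -0.67 with permutation p = 0.027, r = -0.63 without 2 tumors), where tumors 1 to 3 have the highest medians.

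The genes most like each member across tumors were looked up among 7021 or 7022 genes with a median of at least 100, as a description over 11 tumors with no test. For *Snai2* these were *Trp63* (r = 0.97), *Ivl* (r = 0.96), which encodes involucrin of squamous cells, and *Pdrg1* (r = 0.95). *Trp63* was 420 in tumor 8 and 1210 in tumor 9, its lowest and highest values, as for *Snai2*. With the second *Snai2* probe set, *Trp63* correlated at r = 0.91 and *Ivl* at r = 0.87. That probe set reads the same gene on the same arrays and correlated with the first at r = 0.91, so this is no independent check. For *Zeb1* the nearest were *Emp3* (r = 0.91), *Mon2* (r = 0.90) and the receptor *Fgfr1* (r = 0.90), and for *Zeb2* they were *Ubr2* (r = 0.95), *Twf2* (r = 0.89) and *Zfp217* (r = 0.87). *Twist2* was nearest to *Ralb* (r = 0.94) and to the interleukin 1 receptor *Il1r1* (r = 0.92), *Twist1* to *Nck1* (r = 0.86), *Snai1* to *Lsm3* (r = 0.96), *Vim* to *S1pr2* (r = 0.94), *Cdh2* to *Zbtb34* (r = 0.87) and *Fn1* to 0610012G03Rik (r = 0.92). *S1pr2* had r = 0.95 and 0.94 with the other *Vim* probe sets, which themselves correlated with the first at r = 0.97 and 0.98. *Ubr2* had r = 0.19 to 0.49 with the 3 other *Zeb2* probe sets bright enough in tumors. Neighbours of other members were less alike on a second probe set as well. On 1446127_at of *Zeb1*, *Emp3* had r = 0.63, *Mon2* 0.69 and *Fgfr1* 0.57, and on 1437218_at of *Fn1*, 0610012G03Rik had r = 0.58.

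The pools of sorted basal cells show which of these genes give a signal in basal cells prepared from mice without the transgene. They do not show what basal cells of the lesions express. RNA of these cells was amplified with another kit, so their signals were not compared with tissue. The median signal of an array was 15.0 to 19.7 in *Myc*-deficient cells and 13.2 to 18.8 in control cells. *Krt5*, *Krt14* and *Trp63* summed to 10929 to 14734 in *Myc*-deficient and 9867 to 10556 in control cells, while 8 macrophage markers summed to 199.9 to 389 in *Myc*-deficient and 93.6 to 479 in control cells. Fibroblast markers were not absent, with sums of 2368 to 3847 in *Myc*-deficient and 2663 to 3183 in control cells. A signal of these pools can therefore not be assigned to basal cells alone.

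In these cells *Snai2* and *Vim* were bright and most of the other EMT genes were at background. *Twist2* was below 30 in all 6 pools, and *Snai1* was as well. *Zeb1* passed 30 in 1 *Myc*-deficient pool (75.9) and 1 control pool (53.0), and *Zeb2* likewise in 1 pool of each genotype (49.4 and 39.7), so neither was tested.

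Between *Myc*-deficient and control basal cells, 5 of the 9 genes could be tested and none was called. In the background, 0% of 9512 genes were called higher and 0% lower in limma, and 1259 of 19737 probe sets had an unadjusted p under 0.05. With the pool number as a replicate block 2225 had, and in the methods' t-test 880, and neither called any. *Snai2* gave 3490, 3699 and 3193 in *Myc*-deficient pools and 1525, 2288 and 1911 in control pools, with no overlap. Its difference was 0.87 ± 0.21 (unadjusted p = 0.0011, adjusted p = 0.48 in limma), higher in all 3 pairs of pools with the same number, and with the replicate block the adjusted p was 0.12. The second probe set agreed in direction, at 517, 718 and 400 in *Myc*-deficient and 273, 378 and 237 in control pools (0.83 ± 0.32, adjusted p = 0.73), so that *Snai2* failed the correction over all probe sets on both.

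*Twist1* gave 31.2, 71.3 and 32.6 in *Myc*-deficient pools and 26.6, 4.97 and 12.7 in control pools. All control pools were below 30, and the mean of log2 signal of the *Myc*-deficient pools lay 1.39-fold above 30, without a call (adjusted p = 0.78). The *Myc*-deficient pools at 31.2 and 32.6 were themselves close to 30, so that the 1.39 rests mainly on the pool at 71.3. *Cdh2* went the other way, with 10.1, 21.5 and 18.9 in *Myc*-deficient and 48.9, 41.7 and 24.2 in control pools, and was not called (adjusted p = 0.81). The mean of the control pools was 1.22-fold above 30, although 1 of them (24.2) was itself below it. Its second probe set (1449244_at) overlapped between the groups, at 12.5, 18.7 and 37.0 in *Myc*-deficient and 46.4, 11.0 and 11.96 in control pools, and was too dim to be tested. *Vim*, on 1438118_x_at, its brightest probe set in these cells, gave 3361, 3994 and 3024 in *Myc*-deficient and 3010, 3034 and 3165 in control pools (0.16 ± 0.19, adjusted p = 0.90), and *Fn1* gave 96.7, 35.3 and 116 in *Myc*-deficient and 75.0, 97.1 and 67.3 in control pools (-0.05 ± 0.44, adjusted p = 0.99). The groups overlapped for both, and the second *Fn1* probe set was below 30 in all 6 pools.

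**Figure D5:**
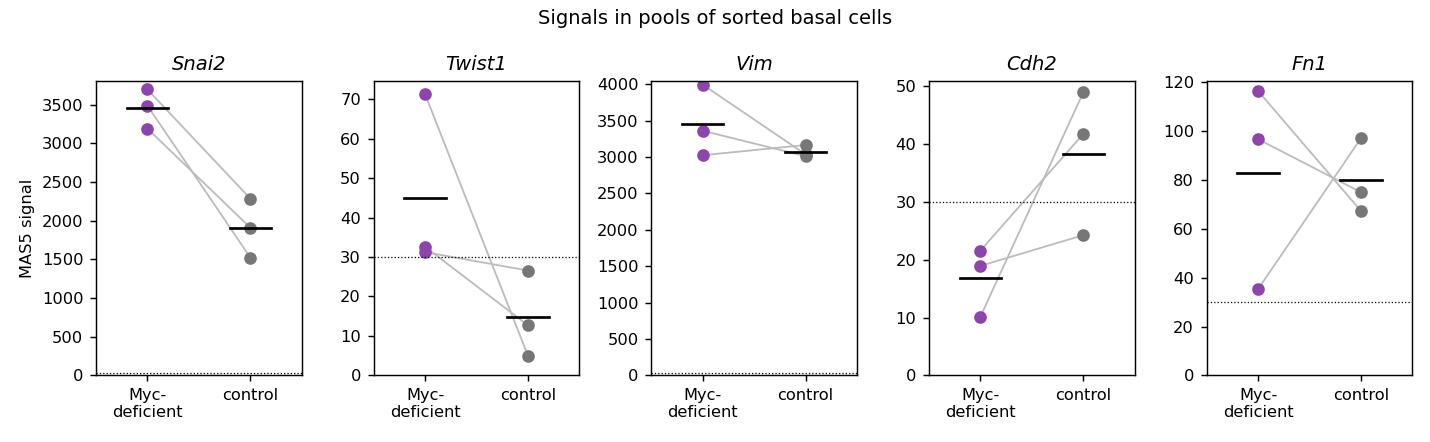
MAS5 signal (vertical axes, each from 0) of the 5 genes that could be tested in pools of sorted basal cells, *Myc*-deficient on the left and control on the right, 3 pools each. Bars are means, grey lines join pools with the same number and the dotted line marks a signal of 30; *Snai2* is the one gene in which the groups are apart and all pools well above 30.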

How the data were processed

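Tissue RNA was prepared with the one-cycle kit of Affymetrix, and RNA from sorted cells with amplification kits of NuGEN. The authors computed linear MAS5 signal intensities in Affymetrix Expression Console before deposition, per the labels, and the trimmed mean of each array was close to a target of 100. For its version, nothing was given in the sources read. Of 45101 probe sets, 64 control probe sets were left out, and 34945 of the rest carry 1 symbol. Groups were taken from the labels, 1 array per sample. Sorted cells were pools of several mice.

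Linear models of log2(signal + 16) were fitted with limma 3.58.1 (R 4.3.3; eBayes with trend), separately for the 25 tissue arrays and the 6 arrays of sorted cells. The offset makes differences of dim genes smaller than the ratio of their signals. Probe sets were tested where the higher group median was at least 30, with Benjamini-Hochberg adjustment over all of them, and a gene was represented by its probe set of highest mean log2 signal in the fit. If no array of a group reached 30, a bound on the fold ("at least") or the fold above 30 is given, from the brighter group's mean of log2 signal and a level of 30. Single samples of the brighter group can lie below 30. Errors of differences are standard errors, errors of signals SDs. Arrays give no counts, so the number of arrays limits the precision. Correlations over the 11 tumors were tested two-sided with 100000 permutations (Python 3.11.15, numpy 2.4.6), with p-values adjusted within each family.

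All 9 genes are described, and up to 4 called genes of each companion list, those with the largest difference in tumors, are named, with others where 5 or fewer were called. The genes and lists were chosen with earlier results of these data known. Of 114 list genes, 9 were not analysed here. Alternatives were other offsets, filters, quantile normalization, the methods' t-test, a fold of 2, the mean of probe sets, fewer samples and a replicate block, and, chosen after seeing the data, each other probe set in place of the brightest and the array median in place of a marker list. Pools of sorted cells with the same number deviated together (r of 0.27, 0.30 and 0.38), so these numbers were taken as pairs, from the data, but in the replicate block alone. The main fit of sorted cells left the pairing out, and its standard errors and adjusted p-values are unpaired. In tissue such correlations were -0.21 to 0.15, and numbers were not taken as pairs. The procedure was tested on simulated data.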

Additional observations from a re-analysis of the deposited data

Results flagged for a closer look

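*Twist1* in small hyperplasia replicate 1, at a signal of 123, stood apart from the 4 other small hyperplasias, which lay between 97.8 and 103. The gap to the nearest sample was 0.798 of the range, above the limit of 0.71 for 5 samples. Of the 27 groups of 4 or 5 samples examined, chance flags about 1 in 20.

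The other differences between lesion stages passed the test between the lesions themselves on the brightest probe sets, but for *Zeb1* and *Twist1* not under every setting. *Zeb1* was lost with the mean of all probe sets (-0.17, adjusted p = 0.11 in limma) and on 1446127_at (-0.18, adjusted p = 0.32). *Twist1* was lost by the methods' t-test (adjusted p = 0.072) and, in limma, without small hyperplasia replicate 1 (-0.53, adjusted p = 0.083). *Zeb2* differed by -1.66 between tumors and large hyperplasias, *Zeb1* by -0.47 between the same stages, and *Twist1* by -0.58 between large and small hyperplasias.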

How the results depend on the processing

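Depth is not given by arrays, and *Snai1*, *Cdh2* and, in sorted cells, *Twist1* lie so close to the background of 30 that they limit any statement. Under quantile normalization 49.3% of calls in tumors against large hyperplasias were higher, beside 38.9% as deposited. Between group medians over 2-fold, 4 members were called in tumors, 0 in large hyperplasias, 1 in tumors against large hyperplasias and 0 in large against small hyperplasias. By the methods' t-test 3 were called in large hyperplasias and 0 in large against small hyperplasias, which also had 0 with no filter. A fit of only both groups called 3 in small hyperplasias. With the mean of all probe sets 1 was called in tumors against large hyperplasias. The replicate block, by numbers that are not pairs in tissue, called 3 in small hyperplasias (*Fn1*, *Zeb1* and *Vim*) and 4 in tumors against large hyperplasias, and put *Snai1* in tumors just past the threshold (0.38, adjusted p = 0.051). In sorted cells the replicate block called 0 members, with *Snai2* at 0.87 (adjusted p = 0.12). Leaving out 1 sample gave 7 to 8 calls in tumors, 4 to 6 in large and 1 to 2 in small hyperplasias, 1 to 4 in tumors against large hyperplasias, 0 to 2 in large against small hyperplasias and 0 in sorted cells. Among tumors, quantile normalization gave 1 pair and 1 marker relation, a floor at 30 gave 1 marker relation, and leaving out a tumor gave 0 to 1 pairs and 0 to 3 relations.

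Direction turned for *Vim* on 1438118_x_at and 1456292_a_at, at 0.24 and 0.25 in tumors, 0.13 and 0.19 in large and 0.17 and 0.27 in small hyperplasias, each against control tissue, and 0.11 and 0.061 in tumors against large hyperplasias. The mean over probe sets gave *Vim* -0.06 in tumors, -0.02 in large and 0.019 in small hyperplasias. For *Zeb1*, 1446127_at gave 0.10 in large and 0.31 in small hyperplasias. For *Zeb2*, 1434298_at gave 0.23 in small hyperplasias, and in large against small hyperplasias 1434298_at, 1456389_at and the mean of probe sets gave -0.66, -0.45 and -0.12. There *Snai2* on 1418673_at gave -0.32. The other turns were of values that were never called. *Cdh2* in small hyperplasias gave -0.00058 by quantile normalization and -0.051 by the mean of probe sets. In tumors against large hyperplasias *Snai2* gave -0.10 by quantile normalization and *Snai1* -0.11 with the replicate block. *Fn1* in sorted cells gave 0.19 by the mean of probe sets. Leaving out 1 sample, *Cdh2* ranged from -0.032 to 0.13 and *Twist1* from -0.25 to 0.013 in small hyperplasias. In tumors against large hyperplasias *Snai2* ranged from -0.057 to 0.14 and *Snai1* from -0.0084 to 0.14. In large against small hyperplasias *Vim* ranged from -0.058 to 0.015 and *Twist2* from -0.0075 to 0.20, and in sorted cells *Fn1* ranged from -0.32 to 0.36. The cause of these changes was not tested.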
